A study of Mus musculus with 8 samples.

Results

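Astrocytes take and keep their identity through a small set of transcription factors, and 10 of the genes that encode such factors are described here: Sox9, Sox8, Sox10 and Sox2, Nfia, Nfib and Nfix, Olig1 and Olig2, and Lhx2. They were chosen by symbol from the deposited expression table, and all 10 were found among its 21878 genes. RNA was sequenced from primary astrocytes of newborn (P0) wild-type C57BL/6 mice in 2 groups of 4 libraries. One group had no treatment, and the other was given a cocktail of interleukin-1α (IL-1α), tumor necrosis factor α (TNFα) and the complement protein C1q, which the study used to obtain reactive cells that carry C3d. The treatment field of 3 cocktail libraries spells C1q with another digit, and the groups follow the sample titles. Dose and exposure time were not given in the sources used here. The design text calls the 4 libraries of a group separate without naming cultures or animals, so the p-values reflect the scatter among libraries, and that scatter may be technical.

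SOX9 and the NFI proteins act in sequence when neural progenitors of the developing nervous system switch from making neurons to making glia, and SOX9 stays on in mature astrocytes. SOX2 keeps neural progenitors undifferentiated and is retained in many astrocytes. SOX8, SOX9 and SOX10 form the SoxE group of high-mobility-group (HMG) box factors, of which SOX10 is the one that drives myelin genes in oligodendrocytes. OLIG1 and OLIG2 are basic helix-loop-helix (bHLH) factors best known for oligodendrocyte fate, and OLIG2 is also made by part of the astrocytes. LHX2 is a LIM homeobox factor that holds back the start of glial production in the developing forebrain.

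The libraries held 19195898 to 20640490 fragments each. Expression is given as FPKM, sequenced fragments scaled to the length of the gene and to the size of the library, so levels of different genes can be set side by side. The label of the cells was checked against astrocyte markers. Untreated libraries had mean levels of 412 FPKM for Gfap, 254 for Slc1a3, 165 for Aqp4 and 91.0 for Aldh1l1, whereas S100b stood at 1.18 FPKM and Gjb6 stayed at or below 0.209 FPKM in every library. Of 11 tested astrocyte markers other than Sox9, 8 fell with the cocktail, 2 rose and 1, Glul, was not called, though Glul was called higher after median-ratio rescaling (limma, adjusted p = 0.0014) and lower after quantile normalization. Markers of other cells were present at various levels and are given with the results they accompany.

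Of the 10 genes, 8 fell with the cocktail, 1 rose (Nfib), and 1 (Sox10) was too low to enter the test. Differences were tested with limma on log2(FPKM + 1) over the 11845 genes that reached 1 FPKM in at least 4 libraries, and a gene was called at a Benjamini-Hochberg adjusted p under 0.05. Changes are given on that log2 scale. The added 1 shrinks changes of genes at low levels. Calls were common in this comparison. Downward calls took 41.1% of all tested genes and upward calls 26.6%, or 67.7% in both directions, and among 806 tested genes that the deposited annotation assigns to a transcription factor family they took 32.0% and 26.6%, or 58.6% together. Of all calls 39.3% were upward, and 51.8% after the libraries were rescaled by median ratios. The 9 tested members had a median log2 change of -0.46, against -0.05 over all tested genes. Every one of the 9 had groups with no overlap, 8 with the cocktail libraries below and 1 with them above. Of all tested genes 62.7% had no overlap, 38.5% with the cocktail libraries below and 24.1% above. These 9 genes had at least 1 FPKM in all 8 libraries, so none entered the test through 1 group only. That does not hold for all genes of the lists used here. Sox3, Nkx2-2, S100b, Rgs5, Ccdc153 and Kdr reached 1 FPKM in untreated libraries only, so their calls could only be lower. Lum reached it in cocktail libraries only, so its call could only be higher. The counts of their lists include these calls. In whole cultures, fewer cells of a type and less RNA per cell cannot be told apart.

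**Figure D1:**
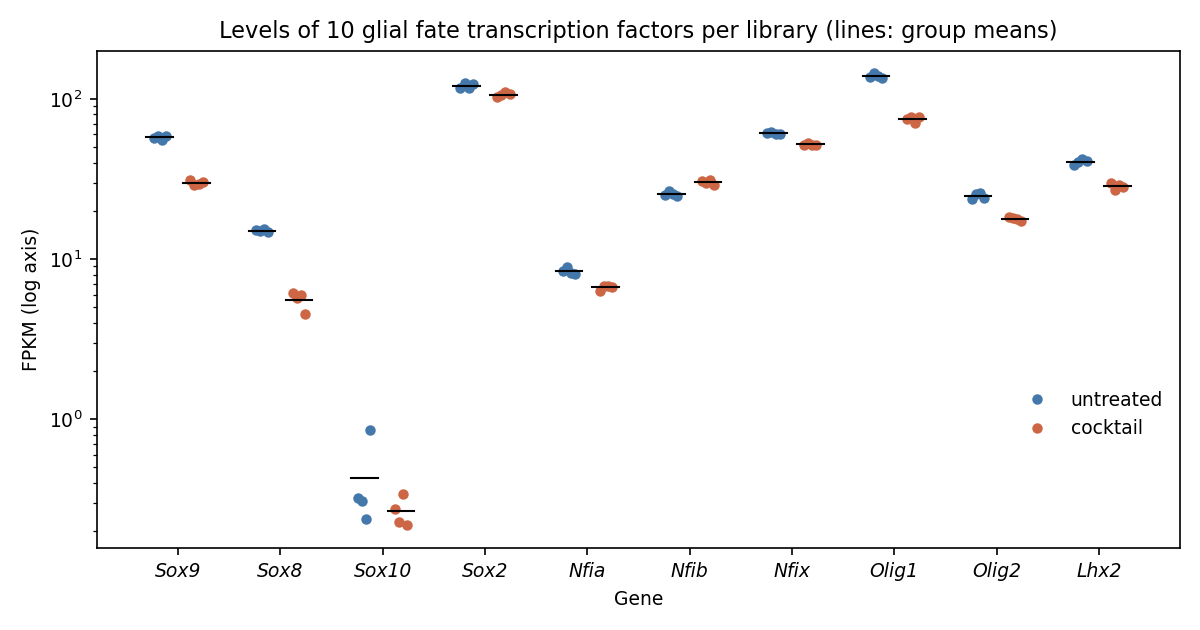
FPKM on a log axis for each of the 10 genes. Every point is 1 of the 4 untreated or 4 cocktail libraries and black lines are group means. The groups are apart for all genes but Sox10, whose untreated library 4 lies at 0.857 FPKM above the other 7 libraries, and Nfib is the gene whose cocktail libraries lie above the untreated ones.

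Both SoxE genes that could be tested fell, Sox8 by the largest log2 change of the members. Sox9, which starts glial production and marks astrocytes, measured 56.6, 59.0, 55.7 and 58.3 FPKM in untreated libraries 1 to 4 and 31.3, 28.9, 29.4 and 30.5 FPKM in cocktail libraries 1 to 4. The highest cocktail library thus lay far below the lowest untreated one. The mean went from 57.4 ± 1.53 to 30.0 ± 1.08 FPKM (SD, n = 4), a fall of 47.7%. Its log2 change was -0.91 (limma, standard error SE 0.033, adjusted p = 2.5e-10). Among the 1368 transcription factor genes in the table it ranked 20 by mean FPKM in untreated and 69 in cocktail libraries. Sox9 lies on chromosome 11 from 112782210 to 112787757 of GRCm38, the assembly that the build name mm10 stands for.

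Sox8, a SoxE gene that often overlaps Sox9 and Sox10 in where it is made, measured 15.1, 14.9, 15.5 and 14.7 FPKM in untreated libraries 1 to 4. In cocktail libraries 1 to 4 it measured 6.16, 5.68, 5.93 and 4.57 FPKM. Cocktail library 4 was the lowest, and the other 3 lay close together. The mean fell from 15.03 ± 0.337 to 5.58 ± 0.705 FPKM (SD, n = 4), 2.69-fold lower, with a log2 change of -1.29 (limma, SE 0.068, adjusted p = 8.0e-09). It was the only member whose mean was at least 2-fold lower, as it was in 7.86% of all tested genes and in 4.09% of the tested transcription factor genes. Counted from the largest fall it ranked 9 among the 806 tested transcription factor genes, Sox9 ranked 22 and Olig1 ranked 25. The lowest Sox8 value rests on 278 fragments, for which counting alone gives an error of 6.00%.

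Sox8 lies on chromosome 17 from 25565893 to 25570686. The 250 bases before its start in RefSeq (GRCm38.p6) are shown because it was the member with the largest fall; they are chr17:25570687-25570936, read on the minus strand. They were searched on both strands for the NFI core TTGGC, the SOX core ACAAT and the NF-kB consensus, the last because the cocktail's cytokines act through that factor. Capitals mark the 1 match, the core of the NFI site, which 41.5% of all 32851 promoter windows of this length hold.
Sox8: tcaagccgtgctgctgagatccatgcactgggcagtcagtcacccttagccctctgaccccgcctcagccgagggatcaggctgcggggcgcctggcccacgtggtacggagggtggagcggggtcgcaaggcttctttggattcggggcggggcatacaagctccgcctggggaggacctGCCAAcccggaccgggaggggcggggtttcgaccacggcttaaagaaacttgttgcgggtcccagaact

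Sox10, the SoxE gene of the oligodendrocyte lineage, was barely present. It measured 0.323, 0.307, 0.239 and 0.857 FPKM in untreated libraries 1 to 4 and 0.275, 0.229, 0.342 and 0.218 FPKM in cocktail libraries 1 to 4. Untreated library 4 stood apart with 48 fragments, against 13 to 17 in the other untreated and 12 to 19 in the cocktail libraries. The other untreated libraries lay within the range of the cocktail libraries. A fit without the filter on low values gave Sox10 a log2 change of -0.16 (limma, SE 0.115, adjusted p = 0.28), so no difference was called. Sox10 lies on chromosome 15 from 79154913 to 79164490.

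Summed over the 3 SoxE genes, the untreated level of 72.9 ± 1.37 FPKM compared with 35.9 ± 1.31 FPKM after the cocktail (SD, n = 4). Sox9 made up 78.8% ± 0.643 of that sum before and 83.7% ± 1.83 after (SD, n = 4), and Sox8 20.6% ± 0.830 and 15.6% ± 1.73 (SD, n = 4). Whether Sox8 fell by more than Sox9 was tested as a ratio within each library, on which the scaling of libraries acts only through the 1 added to each FPKM. The log2 ratio of Sox8 to Sox9, each as FPKM + 1, went from -1.86 ± 0.066 to -2.24 ± 0.172 (SD, n = 4), a difference of -0.38 (exact two-sided permutation test, p = 0.0286, and 0.0286 after Benjamini-Hochberg adjustment over 5 pairs). That is the smallest p that 70 assignments of 4 against 4 libraries allow. Cocktail library 4 set part of the size, with a ratio of -2.50 against -2.17, -2.16 and -2.13 in cocktail libraries 1 to 3. With each of the 8 libraries left out in turn, the difference ran from -0.41 to -0.29.

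Sox2, the progenitor factor, changed less. It measured 117, 125, 117 and 123 FPKM in untreated libraries 1 to 4, and 103, 106, 109.6 and 107 FPKM in cocktail libraries 1 to 4. The gap between the groups was narrow, from 109.6 to 117 FPKM. The mean went from 121 ± 4.16 to 106 ± 2.96 FPKM (SD, n = 4), a fall of 11.9%, with a log2 change of -0.18 (limma, SE 0.032, adjusted p = 2.9e-04). When libraries were rescaled by median ratios the change was smaller, -0.10, and still called (limma, adjusted p = 0.0098). Sox2 ranked 7 among transcription factor genes by mean FPKM in untreated and 10 in cocktail libraries. Relative to Sox2, Sox9 fell: the log2 ratio of Sox9 to Sox2 went from -1.06 ± 0.014 to -1.79 ± 0.081 (SD, n = 4), a difference of -0.73 (exact two-sided permutation test, p = 0.0286, adjusted over 5 pairs 0.0286).

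Sox2 lies on chromosome 3 from 34649995 to 34652461. In the GENCODE M21 annotation it sits inside the noncoding gene Sox2ot on the same strand, so fragments of unspliced Sox2ot RNA across it could be counted as Sox2. Its RefSeq upstream window, chr3:34649745-34649994 on the plus strand, is shown for comparison with Sox8 as that of the SOX gene among the members with the smallest fall. Capitals mark its 1 match, again an NFI core.
Sox2: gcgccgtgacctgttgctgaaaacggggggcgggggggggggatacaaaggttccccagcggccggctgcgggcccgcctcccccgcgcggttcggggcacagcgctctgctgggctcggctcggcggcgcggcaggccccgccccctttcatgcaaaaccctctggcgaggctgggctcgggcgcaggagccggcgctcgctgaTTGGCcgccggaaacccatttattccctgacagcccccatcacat

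The Sox genes as a family moved mainly downward. Of 19 genes of the table named Sox and a number, 12 were tested, 11 fell and 1 rose, the members Sox2, Sox8 and Sox9 included. Of all tested genes 41.1% were called lower. Sox3, counted among the falls, reached 1 FPKM in untreated libraries only, so its call could only be lower. Besides Sox8 and Sox9, Sox1, a progenitor factor close to Sox2, went from 20.6 ± 1.43 to 11.04 ± 0.708 FPKM (SD, n = 4), and Sox13 from 5.04 ± 0.545 to 2.41 ± 0.510 FPKM (SD, n = 4). The rise was that of Sox7, a gene of the SoxF group known from endothelial cells, from 1.91 ± 0.350 to 8.41 ± 0.632 FPKM (SD, n = 4; log2 change 1.70, limma, adjusted p = 3.9e-09). Among 35 tested genes that the deposited annotation puts in the HMG family as a whole, 22 fell, 9 rose and 4 were not called. Sox11 was no longer called after quantile normalization, and no called Sox gene changed direction under it, under median-ratio rescaling, or under limma voom on recovered fragments.

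The NFI genes did not move together. Nfia, the member most closely tied to the onset of glial production, measured 8.42, 8.97, 8.22 and 8.05 FPKM in untreated libraries 1 to 4 and 6.29, 6.76, 6.79 and 6.73 FPKM in cocktail libraries 1 to 4. Cocktail library 1 was the lowest, and the groups did not overlap. The mean fell by 21.0%, from 8.41 ± 0.401 to 6.64 ± 0.237 FPKM (SD, n = 4), with a log2 change of -0.30 (limma, SE 0.044, adjusted p = 6.7e-05). Although it is the best known of the family in astrocytes, Nfia had the lowest level of the 4 NFI genes in both groups. It lies on chromosome 4 from 97578066 to 98118876.

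Nfib, which also promotes glial and neuronal maturation, was the member that rose. It measured 24.95, 26.5, 25.4 and 24.6 FPKM in untreated libraries 1 to 4 and 30.5, 29.7, 30.9 and 29.1 FPKM in cocktail libraries 1 to 4. All cocktail libraries lay above all untreated ones. The mean rose by 18.5%, from 25.4 ± 0.810 to 30.1 ± 0.832 FPKM (SD, n = 4), with a log2 change of 0.24 (limma, SE 0.033, adjusted p = 4.3e-05). Nfib lies on the same chromosome as Nfia, from 82290173 to 82506751.

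Nfix, which acts late in neural stem cells and maturing glia, was the most abundant NFI gene. Its level was 61.2, 62.0, 60.2 and 60.2 FPKM in untreated libraries 1 to 4 and 51.4, 53.3, 51.7 and 51.7 FPKM in cocktail libraries 1 to 4. Libraries of a group lay within a narrow band, and the bands were well apart. The mean went from 60.9 ± 0.843 to 52.0 ± 0.875 FPKM (SD, n = 4), a fall of 14.6%, with a log2 change of -0.22 (limma, SE 0.025, adjusted p = 7.1e-06). After median-ratio rescaling its change was -0.15 (limma, adjusted p = 3.2e-04). Nfix lies on chromosome 8 from 84704712 to 84801238. It overlaps Lyl1, a bHLH gene of blood cells, on the opposite strand, and Sox8, Nfia, Nfib, Olig1 and Lhx2 also have annotated partners on the opposite strand, whose fragments cannot be told apart where counting ignored strand.

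Nfic, the NFI gene outside the 10 and the one with the least known role in glia, rose from 27.5 ± 0.987 to 30.8 ± 0.697 FPKM (SD, n = 4; log2 change 0.16, limma, adjusted p = 9.6e-04). The family thus split into 2 genes that fell and 2 that rose, while its summed level was 121 to 126 FPKM in untreated and 118 to 121 FPKM in cocktail libraries, ranges that overlap. Its make-up shifted. Nfix held 49.9% ± 0.537 of the untreated and 43.5% ± 0.508 of the cocktail sum (SD, n = 4), and Nfib 20.8% ± 0.350 and 25.2% ± 0.630 (SD, n = 4). Nfic went from 22.5% ± 0.561 to 25.8% ± 0.367 of the sum and Nfia from 6.88% ± 0.198 to 5.56% ± 0.203 (SD, n = 4). These shares are of RNA per length and say nothing of protein.

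**Figure D2:**
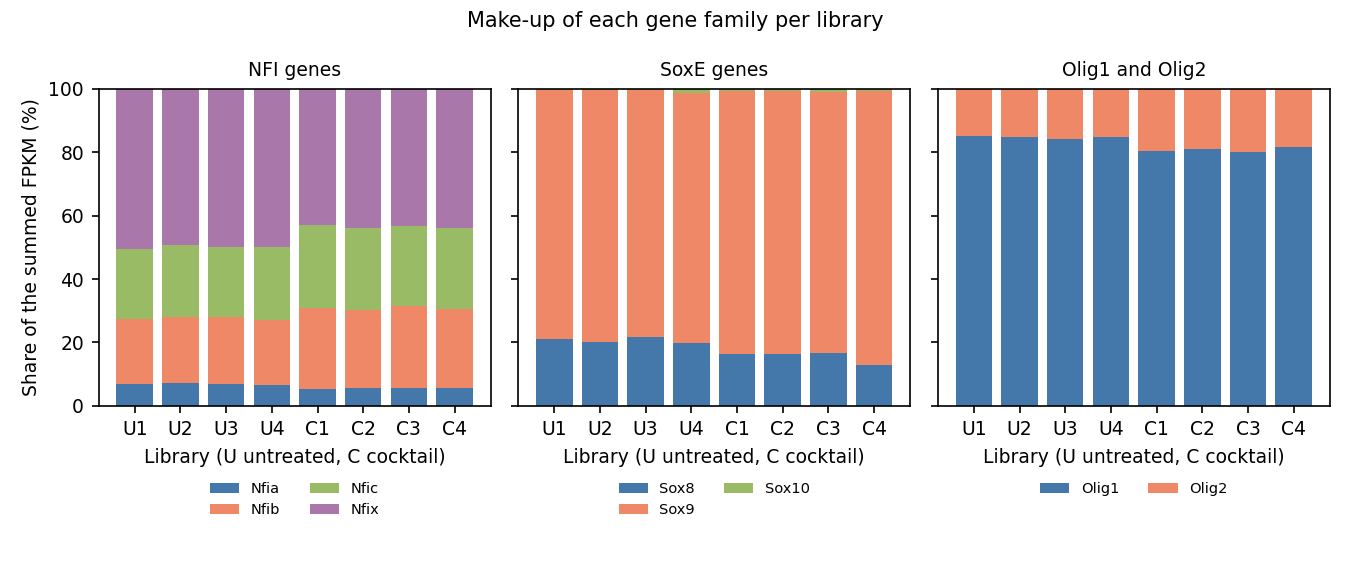
Stacked bars give the percent of the summed FPKM of each family held by each gene, in untreated (U1 to U4) and cocktail (C1 to C4) libraries. Nfix takes 49.2% to 50.5% of the NFI sum in untreated and 43.0% to 44.0% in cocktail libraries, Sox8 takes a smaller part of the SoxE sum in every cocktail library, and Olig2 a larger part of the Olig1 and Olig2 sum.

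The unequal changes within the NFI family were also set out as ratios within each library. Nfia to Nfib went from a log2 ratio of -1.49 ± 0.029 to -2.02 ± 0.067 (SD, n = 4), a difference of -0.54 (exact two-sided permutation test, p = 0.0286, adjusted over 5 pairs 0.0286). Nfix to Nfib went from 1.23 ± 0.032 to 0.77 ± 0.051 (SD, n = 4), a difference of -0.46 (exact two-sided permutation test, p = 0.0286, adjusted over 5 pairs 0.0286). In both pairs every cocktail library lay below every untreated library. That follows from the single genes, since Nfia and Nfix fell and Nfib rose, each without overlap between the groups. The p of both tests was thus fixed beforehand, and the ratios give only the size of the differences.

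Olig1 and Olig2 both fell, and Olig1 by more. Olig1 was the most abundant of the 10 genes in untreated cells, with 137, 144, 138 and 134 FPKM in libraries 1 to 4, and ranked 6 among all transcription factor genes. In cocktail libraries 1 to 4 it measured 75.2, 76.6, 70.8 and 76.6 FPKM. The groups were far apart, and the mean fell by 46.0%, from 139 ± 4.14 to 74.8 ± 2.76 FPKM (SD, n = 4). Its log2 change was -0.88 (limma, SE 0.033, adjusted p = 3.6e-10). Olig1 lies on chromosome 16 from 91269769 to 91271939.

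Olig2, which patterns the progenitors of motor neurons and oligodendrocytes, measured 23.8, 25.5, 25.9 and 24.2 FPKM in untreated libraries 1 to 4. In cocktail libraries 1 to 4 it measured 18.2, 17.99, 17.7 and 17.2 FPKM, all below the untreated ones. The mean went from 24.9 ± 1.02 to 17.8 ± 0.422 FPKM (SD, n = 4), a fall of 28.5%, with a log2 change of -0.46 (limma, SE 0.035, adjusted p = 2.3e-07). The log2 ratio of Olig1 to Olig2 dropped from 2.43 ± 0.044 to 2.01 ± 0.064 (SD, n = 4), a difference of -0.42 (exact two-sided permutation test, p = 0.0286, adjusted over 5 pairs 0.0286). Olig3, the other gene of the family, was at 0 in all 8 libraries.

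Olig2 lies 41092 bases before Olig1, from 91225550 to 91228677. Its RefSeq upstream window, chr16:91225300-91225549 on the plus strand, is shown as the one with the most matches among the members. Capitals mark 2 NFI cores and 1 SOX core, which is present in 27.7% of all windows.
Olig2: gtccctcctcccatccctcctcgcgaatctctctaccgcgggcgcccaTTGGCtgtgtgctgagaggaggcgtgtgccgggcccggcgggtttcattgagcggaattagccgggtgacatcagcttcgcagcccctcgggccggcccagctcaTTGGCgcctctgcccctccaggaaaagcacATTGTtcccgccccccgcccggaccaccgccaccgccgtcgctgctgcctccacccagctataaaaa

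Windows of this table were matched to 6 of the 10 genes, in 10 windows, since Nfix has 4 starts and Lhx2 has 2. The NF-kB consensus occurred in 1 of these windows, at the second start of Lhx2, and in 7.25% of all windows. The full NFI palindrome, with cores on both strands, occurred in none of them, and in only 0.037% of all windows, so its absence says nothing of the members. A match describes letters and does not show that a factor binds.

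**Figure D3:**
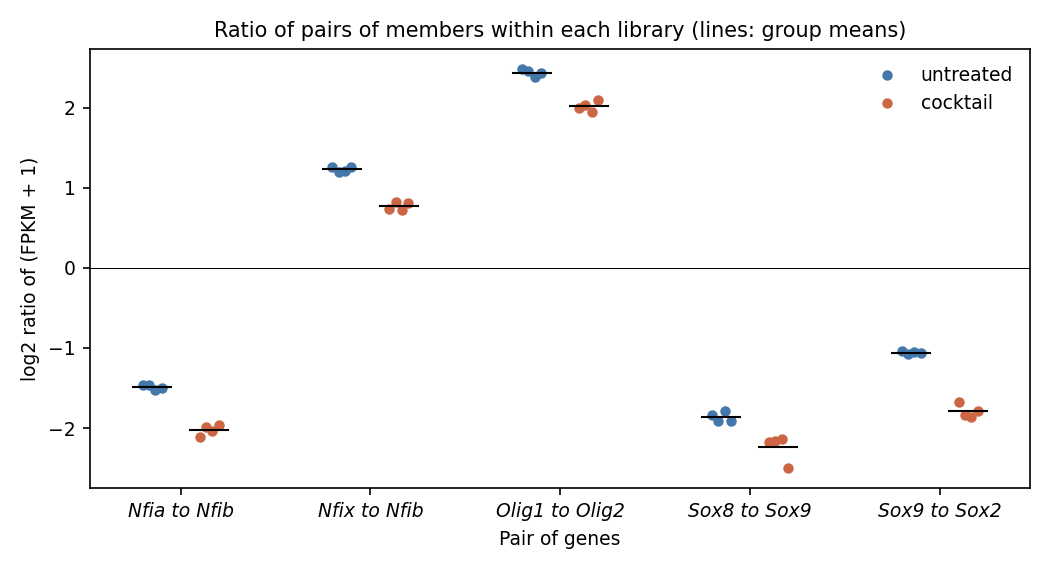
The log2 ratio of FPKM + 1 between members, with 1 point per library and black lines for group means. In each of the 5 pairs the 4 cocktail libraries lie below the 4 untreated ones, with differences of group means from -0.73 to -0.38.

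Lhx2, the forebrain LIM homeobox gene, measured 38.4, 40.2, 42.0 and 41.1 FPKM in untreated libraries 1 to 4. In cocktail libraries 1 to 4 it measured 29.7, 26.9, 28.8 and 28.2 FPKM, with no overlap between the groups. The mean fell by 29.7%, from 40.4 ± 1.51 to 28.4 ± 1.16 FPKM (SD, n = 4), with a log2 change of -0.49 (limma, SE 0.037, adjusted p = 1.9e-07). Lhx2 lies on chromosome 2 from 38339271 to 38369737. Among 43 tested genes of the Homeobox family in the deposited annotation 20 fell, 17 rose and 6 were not called, and among 42 tested bHLH genes 21 fell, 12 rose and 9 were not called.

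The order of levels changed with the cocktail. In untreated cells it ran from Olig1 through Sox2, Nfix, Sox9, Lhx2, Nfib, Olig2, Sox8 and Nfia to Sox10, and among neighbours in this order only Nfib and Olig2 had overlapping ranges. In cocktail cells it ran from Sox2 through Olig1, Nfix, Nfib, Sox9, Lhx2, Olig2, Nfia and Sox8 to Sox10. There Nfib and Sox9 overlapped, at 29.1 to 30.9 and 28.9 to 31.3 FPKM, and so did Sox9 and Lhx2. Sox2 and Olig1 thus traded the top place, and Sox8 and Nfia the place above Sox10.

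Other transcription factors of glial and neural fate were drawn from a list of 32 genes, of which 27 were tested. In that list 19 fell, 5 rose and 3 (Zbtb20, Zbtb18 and Zic1) were not called, with a median log2 change of -0.25. Of all tested genes 41.1% fell and 26.6% rose. Sox3 and Nkx2-2, counted among the falls, entered the test through the untreated group only. Id4 and Id2, inhibitors of bHLH factors, both fell. Id4 went from 89.0 ± 3.58 to 32.4 ± 1.17 FPKM, and Id2 from 192 ± 2.41 to 90.7 ± 4.55 FPKM (SD, n = 4). Their relative Id3 rose from 478 to 700.0 FPKM (limma, log2 change 0.55). Hes1, a repressor downstream of Notch, fell from 12.1 ± 1.04 to 5.57 ± 0.174 FPKM (SD, n = 4). Zeb2, a zinc finger and homeobox factor, rose from 9.92 to 18.4 FPKM. Rfx4 and Pax6, factors of radial glia, fell from 16.0 to 10.4 and from 16.4 to 12.7 FPKM. Myrf and Nkx6-1, which act in oligodendrocytes and ventral progenitors, did not reach 1 FPKM in any library. Id1 fell from 204 to 188 FPKM, a call that was lost after median-ratio rescaling. The calls of Nkx2-2, a factor of ventral progenitors and oligodendrocytes, and Sox11 were lost after quantile normalization, and those of Id1 and Nkx2-2 without cocktail libraries 3 and 4, which left 17 of the 19 lower calls in each case. No called gene of the list turned its direction under that rescaling or quantile normalization.

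**Figure D4:**
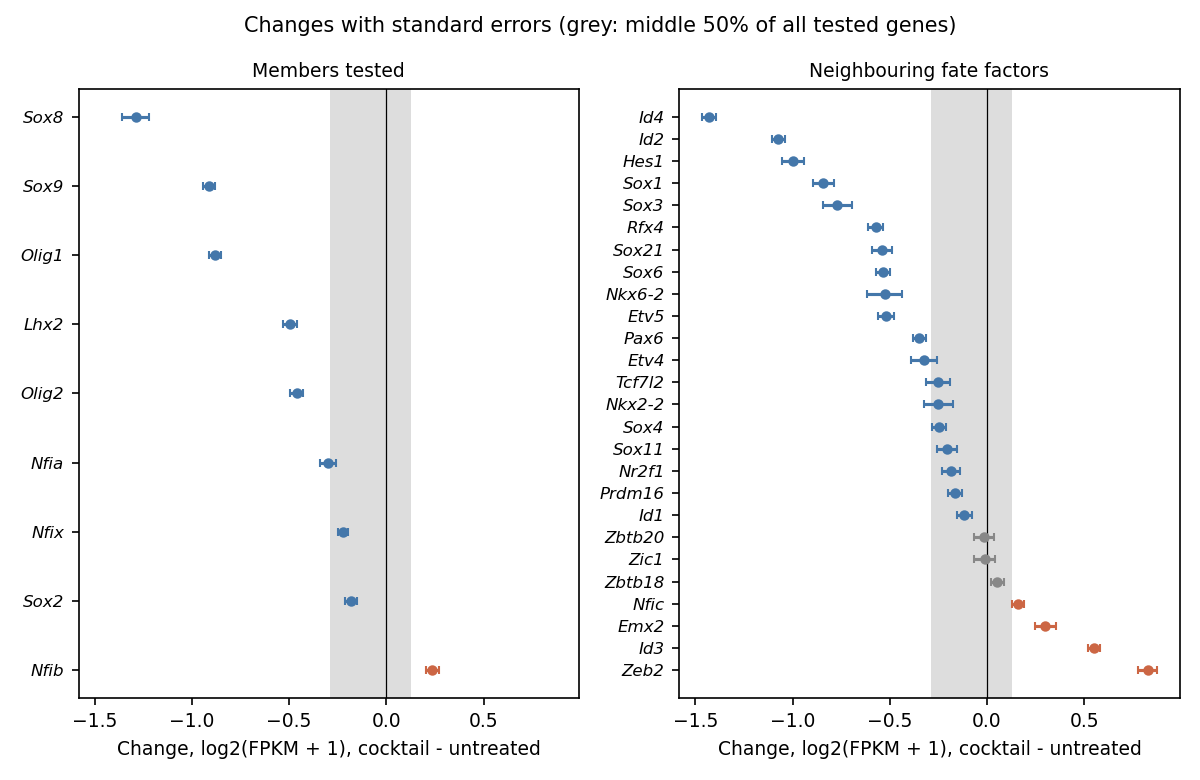
Change on the log2(FPKM + 1) scale, cocktail minus untreated, with standard errors, for the 9 tested members (left) and neighbouring fate factors (right). Blue marks genes called lower, orange called higher and grey not called, and the band from -0.29 to 0.13 holds the middle of all tested genes by quartiles. Sox8, Sox9, Olig1, Lhx2, Olig2 and Nfia lie below that band and Nfib above it.

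Genes known to depend on SOX9 and NFI factors, or to be expressed with them in astrocytes, were taken from a list of 14, all of them tested. In that list 11 fell and 3 rose, with a median log2 change of -0.71, where 41.1% of all tested genes fell and 26.6% rose. S100b, counted among the falls, entered the test through the untreated group only. Mmd2, Apcdd1 and Zcchc24, reported targets of SOX9 and NFIA together in the embryonic spinal cord, all fell. Mmd2 went from 19.5 ± 1.55 to 6.22 ± 0.584 FPKM (SD, n = 4), Apcdd1 from 3.03 to 2.17 and Zcchc24 from 95.3 to 85.7 FPKM. Slc4a4, a bicarbonate transporter, and Aldoc, a glycolytic enzyme, fell from 50.7 to 14.6 and from 76.7 to 25.3 FPKM. Slc1a2, a glutamate transporter, rose from 9.73 ± 0.579 to 52.3 ± 1.17 FPKM (SD, n = 4), the water channel gene Aqp4 from 165 to 253 FPKM and Fabp7, the lipid-binding protein of radial glia, from 342 to 481 FPKM. The list therefore held genes that moved against the direction of Sox9 and Nfia, and the part of these factors in any of the changes was not tested.

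Markers of other cells moved between the groups as well. The counts of called markers stand beside 41.1% of all tested genes called lower and 26.6% called higher. The oligodendrocyte precursor list without the members had a summed level of 79.9 to 90.5 FPKM in untreated and 50.5 to 55.1 FPKM in cocktail libraries, with 4 of 5 tested genes lower and 1 higher. The higher one was Pdgfra, the receptor that defines these precursors, at 0.934 and 3.07 FPKM (limma, log2 change 1.07), while Cspg4 went from 3.29 to 2.15 FPKM. Gpr17 did not exceed 0.0093 FPKM, Mog was at 0 in every library, and Mbp stood at 0.345 and 0.375 FPKM. In the mature oligodendrocyte list 8 of 10 genes stayed below 1 FPKM in every library, and its sum, 47.1 to 52.6 and 26.4 to 29.4 FPKM, was nearly all Cnp. Olig1 and Olig2 were thus high in libraries in which Sox10 and defining oligodendrocyte genes were at or near 0.

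Ependymal cells, which line the ventricles and also make SOX9 and SOX2, had a summed marker level of 172 to 190 FPKM in untreated and 136 to 154 FPKM in cocktail libraries, with 4 of 5 tested genes lower and 1 higher. Foxj1, their defining factor, went from 116 ± 5.63 to 70.9 ± 5.44 FPKM (SD, n = 4), and Tmem212 did not exceed 0.07 FPKM. Dynlrb2 fell from 19.6 to 6.28 FPKM and Enkur from 25.01 to 10.8 FPKM. The gene called higher was Rarres2, from 18.4 to 56.1 FPKM, and its rise offset part of the falls in the ependymal sum. Cell cycle genes fell in all 12 cases, with summed levels of 272 to 310 and 95.0 to 123 FPKM, and Mki67 from 18.5 to 5.34 FPKM. Of 6 tested neural progenitor markers other than Sox2, 4 fell and 2 rose, with Nes, a filament gene of progenitors, going from 138 to 59.5 FPKM. The part of these cells and of cell division in the falls of Sox2, Sox8, Sox9 and the other members was not tested.

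Among neuronal markers 2 of 4 tested genes fell and 1 rose, and the summed level went from 140 to 158 down to 52.5 to 59.8 FPKM, mostly through Stmn2. Rbfox3, which defines mature neurons, did not exceed 0.05 FPKM, and Tubb3 stood at 11.2 and 9.91 FPKM (limma, adjusted p = 0.072). In the mural list all 4 tested genes fell and its sum went from 560 to 631 down to 125 to 140 FPKM, nearly all of it Acta2. In the fibroblast list 4 of 7 fell and 2 rose, and its sum went from 368 to 462 down to 264 to 304 FPKM. Fn1 held the largest part of that sum, at 276 and 177 FPKM. The 2 that rose were Lum, from 0.237 to 7.69 FPKM, and Dcn, from 1.45 to 8.31 FPKM. Endothelial markers summed to at most 5.41 FPKM, with Cldn5 at 0 in every library. The part of these cells in the members' changes was not tested.

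Microglial markers were low but uneven, with summed levels of 10.9 to 13.04 FPKM in untreated libraries and of 15.6, 16.3, 35.8 and 47.5 FPKM in cocktail libraries 1 to 4. All 5 tested microglial genes rose, and 2 did so without cocktail libraries 3 and 4. With those libraries left out the log2 change of Sox9 was -0.91, of Olig1 -0.86, of Lhx2 -0.50 and of Nfib 0.24. That of Sox8 was -1.21, against -1.29 with all libraries, and all 9 calls held. Cocktail libraries 1 and 2, which were kept, also had microglial sums above those of every untreated library. The part of microglia in the members' changes was not tested.

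**Figure D5:**
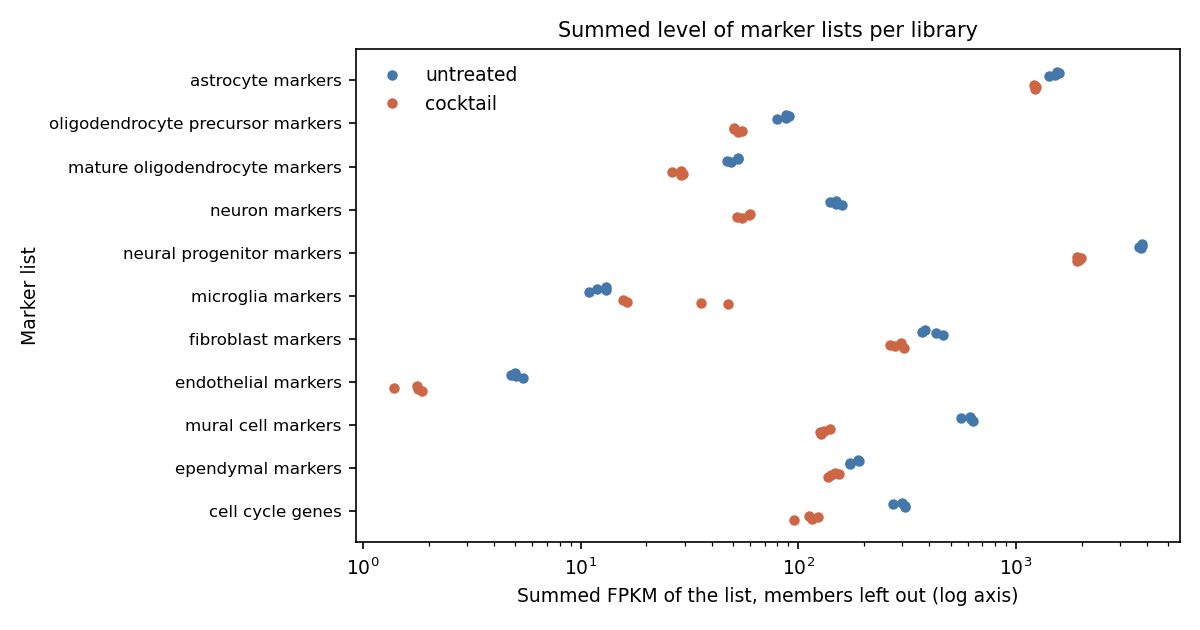
Summed FPKM of each marker list on a log axis, with the 10 members left out of the lists. Every point is 1 library. Cocktail libraries lie lower for all lists shown except microglial markers, where libraries at 35.8 and 47.5 FPKM lie apart from those at 15.6 and 16.3 FPKM.

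Genes whose pattern over the 8 libraries was most like that of a member were found by the Euclidean distance between log2(FPKM + 1) values after subtraction of the untreated mean, among 8528 tested genes with a mean of at least 5 FPKM. For Sox9 they were Ehbp1, an adaptor of vesicle traffic, Tmem44 and Tom1l2, at distances of 0.077, 0.108 and 0.111. For Olig1 they were the zinc finger factor gene Klf13, the adenylate kinase gene Ak5 and Daam2, a formin-like gene of Wnt signalling, at 0.064, 0.077 and 0.105. For Nfib they were Pura, Chic2 and the zinc finger factor gene Tshz1, at 0.055, 0.065 and 0.069. Since most genes differ between the groups, a small distance mainly says that a gene changed by a similar amount.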

How the data were processed

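The authors deposited FPKM values, 1 column per library, for 21878 genes. DESeq and the build mm10 are named in the submitters' processing notes. Aligner and counter were not given in the sources used here, nor whether counting used strand, although per the labels' protocols the kit was a stranded mRNA kit. Positions and upstream windows came from RefSeq tables of GRCm38.p6, matched by NCBI gene number and symbol.

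From the FPKM, whole fragments were recovered for each of 16557 genes with values above 0 in at least 2 libraries, since values of a gene stand in ratios of whole numbers (relative tolerance 1e-10), and with them the library totals. A value of 0 is compatible with up to 3 fragments by counting error alone, which is 0.0727 to 0.0781 FPKM at 2 kb. Pairs of libraries of a group had a chi-square of 2.11 to 6.79 per gene, above the value of 1 of sampling noise, so no pair looked like 1 library deposited more than once. Untreated pairs ran from 2.11 to 4.50. Cocktail libraries 1 and 2 (2.29) and 3 and 4 (2.55) were closer to each other than pairs across them (4.12 to 6.79). What set these pairs apart was not tested.

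The test was limma 3.58.1 (R 4.3.3) on log2(FPKM + 1), two-sided, with a trend of variance on level and without covariates. The fit was run on simulated data, with the same scatter beyond counting for every gene and independent libraries. Simulated log2 changes of -1 and -0.5 came back as -0.878 and -0.441 in the median, and 0.113% of unchanged genes were called. The deposited libraries differ from that setting, so the run checks the steps and not the error rate in these data. Ratios of 5 pairs were compared by exact permutation of libraries. Alternatives were pseudocounts of 0.1 and 0.5, other filters, median-ratio and quantile scaling, no trend, robust variances, a replicate block, voom on recovered fragments, and libraries left out. Count tools other than voom were not run, since the deposited unit is FPKM.

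The members, gene lists and tests were chosen with earlier results of these data known. Named genes were the members, the 3 genes most like each member (given for 3 members), up to 4 called genes per list with the largest changes and at least 5 FPKM, and 8 defining markers. Genes of a list outside that rule, Nfic, Sox7 and Sox13 among them, were chosen after their values were seen. A few genes that the lists count are not reported here by name.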

Additional observations from a re-analysis of the deposited data

Results flagged for a closer look

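In each group of 4 libraries the value farthest from its neighbour was compared with Dixon's 95% critical value of 0.829, in 20 groups of the 10 genes. Chance flags about 1 in 20 such groups, and 2 were found. Sox10 in untreated library 4, at 0.857 FPKM, lay above the other untreated libraries (0.239 to 0.323 FPKM), with a gap of 0.864 of the whole range. In the same library Mbp, a myelin gene, was at its lowest untreated level, 0.286 FPKM. Nfia in cocktail library 1, at 6.29 FPKM, lay below the other cocktail libraries (6.73 to 6.79 FPKM), with a gap of 0.869 of the range. Without that library the log2 change of Nfia was -0.28 and still called (limma, adjusted p = 2.9e-04).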

How the results depend on the processing

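All 9 tested members kept their direction and their call under each of the 20 alternatives, 180 values in all. The count stayed at 8 lower and 1 higher in each, and the highest adjusted p was 0.0098, for Sox2 after median-ratio rescaling (limma). The median-ratio scaling moved the median log2 change of all tested genes from -0.05 to 0.02, and the split of all calls from 3151 higher and 4872 lower (39.3% higher) to 4281 and 3976 (51.8% higher). Fits without 1 library each gave 2942 to 3059 genes higher and 4664 to 4765 lower. With the replicate block the log2 change of Sox9 was -0.91 (limma, adjusted p = 4.6e-08), 3121 genes were higher and 4829 lower, and no member's call changed. Deviations of libraries with the same replicate number correlated at -0.044, 0.078, 0.086 and -0.0071, and 2 of 4 correlated best with their own number. Such weak correlations cannot settle whether the numbers pair the samples, which the labels do not say. The 5 ratios kept their direction with a pseudocount of 0.1 and without each library. Their exact p was 0.0286 throughout, the smallest possible both for 4 against 4 and for 3 against 4 libraries, so it says nothing of stability. After quantile normalization Olig1 (-0.93) fell by slightly more than Sox9 (-0.92). Sox10 had only 12 to 48 fragments, the 48 in untreated library 4, and what kept it from a call was not tested.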
